A study of Gallus gallus with 9 samples.

Results

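Chicken embryo myoblasts kept in growth medium (GM) were compared with the same kind of cells after 4 days in differentiation medium (DM), in 3 RNA sequencing libraries each, 6 of the 9 libraries in the series. All 6 came from skeletal muscle of chicken embryos at passage 1, with no genetic change or added agent in the labels. GM cells, labelled as dividing myoblasts, grew in RPMI-1640 with 15% fetal bovine serum, and DM cells, labelled as myotubes, were switched to 2% horse serum. Serum source, serum level and days in culture therefore changed together and cannot be told apart. The other 3 libraries, from cells just after serial plating (PM), entered only alternative fits. Whether the replicates of a medium were grown from different embryos or in different dishes is not in the labels. A p-value here thus describes the scatter among these libraries, which may be technical.

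Myoblasts are the precursors of skeletal muscle fibres. On serum withdrawal they are known to leave the cell cycle, to switch on MYOG, an early muscle differentiation factor, to fuse through the membrane protein myomaker (listed in the files as TMEM8C) and to build sarcomeres, the contractile units of actin and myosin filaments anchored at Z-discs. MYF5 and MYOD1 are the factors that set the muscle lineage and are present before fusion. Primary muscle cultures also hold fibroblasts and other cells of the tissue, and in bulk RNA fewer cells of a type and less RNA per cell cannot be told apart.

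The 6 tables held 21528951 to 27110310 reads counted to Ensembl chicken genes, and 17909 to 18485 genes had at least 1 read in a library. On the first principal component of the log2 CPM, the read count scaled to library size, with 82.8% of the variance, the 3 GM libraries stood apart from the 3 DM libraries. The second, with 7.08%, set GM replicate 3 apart, with a score of 36.8 against -15.3 and -23.1 for GM replicates 1 and 2. Pairwise correlations of log2 CPM, which is a description over genes, were 0.982 to 0.992 within GM, 0.988 to 0.991 within DM and 0.906 to 0.919 between them. The biological coefficient of variation, the fitted spread between replicates beyond counting noise, was 14.2% with all 6 libraries and 9.97% without GM replicate 3. Counts and medians of gene lists are therefore given with and without that library, and single genes where the call or direction changed or the fold moved by over 1.5 times.

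**Figure D1:**
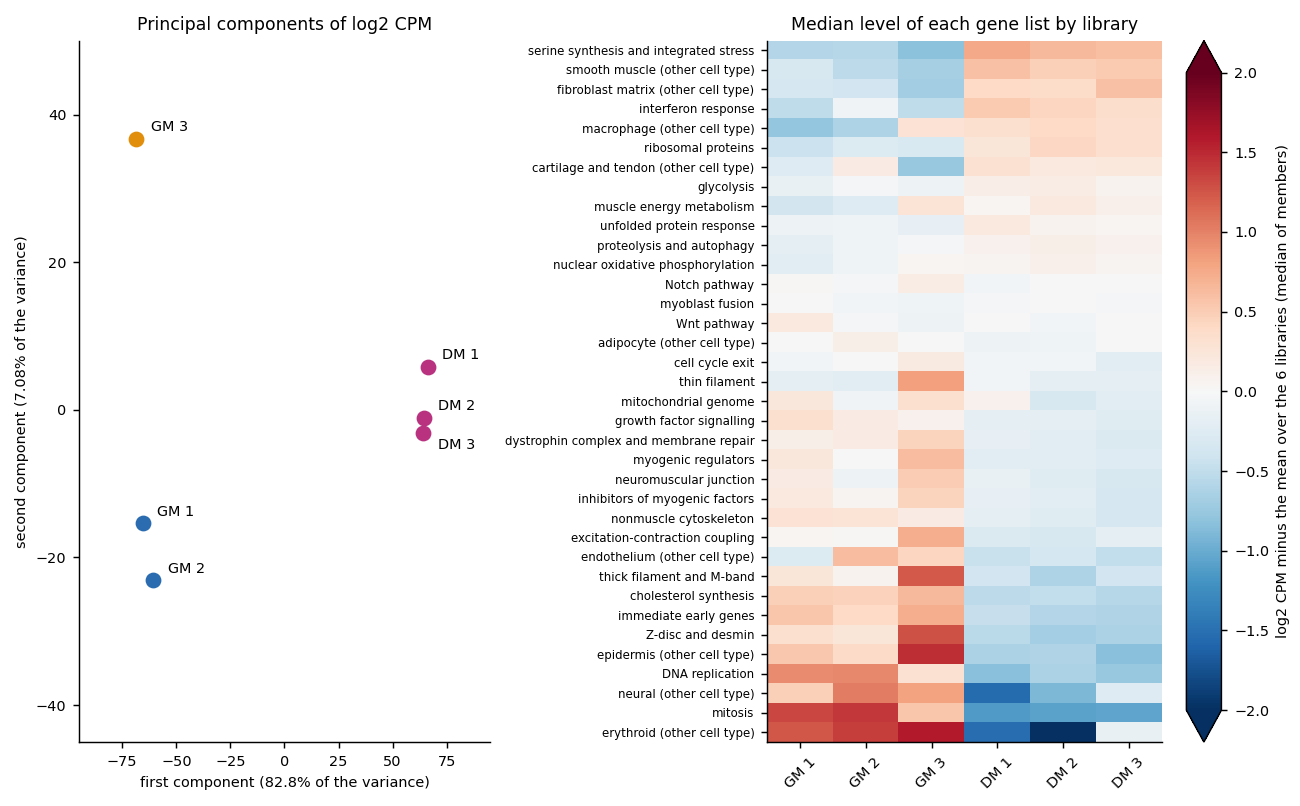
Left: scores of the 6 libraries on the first 2 principal components of log2 CPM. Right: for each gene list with at least 7 tested members, the median over members of log2 CPM minus the gene's mean over the 6 libraries, on a colour scale that ends at -2 and 2. GM and DM separate along the first component, and GM replicate 3 lies alone at 36.8 on the second, with higher sarcomere and macrophage lists and lower mitosis and replication lists than GM replicates 1 and 2.

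GM replicate 3 differed from the other GM libraries in named gene groups. Its thick filament genes were higher than the mean of GM replicates 1 and 2 by a median of 1.14 on the log2 scale, its Z-disc genes by 1.04, its thin filament genes by 0.86 and its excitation-contraction genes by 0.86. Red cell markers, with 7 tested, were higher there by 1.35, the largest difference of any list. Macrophage markers were higher by 1.06 and epidermal markers by 0.93. Mitosis genes had a difference of -0.80, replication genes of -0.61 and fibroblast matrix genes of -0.42. GM replicate 2 differed from GM replicate 1 by at most 0.37 in any list of the figure of libraries and lists. What set GM replicate 3 apart was not tested.

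Between growth medium and 4 days of differentiation the change was broad. Of 14513 genes tested, 4475 rose (30.8%) and 4198 fell (28.9%) in DM at an adjusted p below 0.05, by the quasi-likelihood test of edgeR, adjusted over all genes by the Benjamini-Hochberg method. At least a 2-fold change was seen for 1867 of those that rose (12.9% of the genes tested) and 1579 of those that fell (10.9%), and at least a 16-fold change for 82 and 62. DM lay above GM without overlap for 4514 genes (31.1%) and below it for 5208 (35.9%). Overlap was judged on CPM scaled to total reads only, without the TMM scaling between libraries that the test used. The TMM factors were 1.03, 1.05 and 0.988 in GM and 0.958, 0.984 and 0.990 in DM. Shares without overlap are therefore not on the same scale as the shares called. Without GM replicate 3, 4637 of 14780 genes rose (31.4%) and 4581 fell (31%). Of the genes tested in both fits, 4204 rose in both, 4096 fell in both, and 0 were called in opposite directions. The median log2 fold change over all genes was 0.01 with 6 libraries and 0.00 without that library. A share of calls in a list is to be read against these shares, and a list's median against that value.

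**Figure D2:**
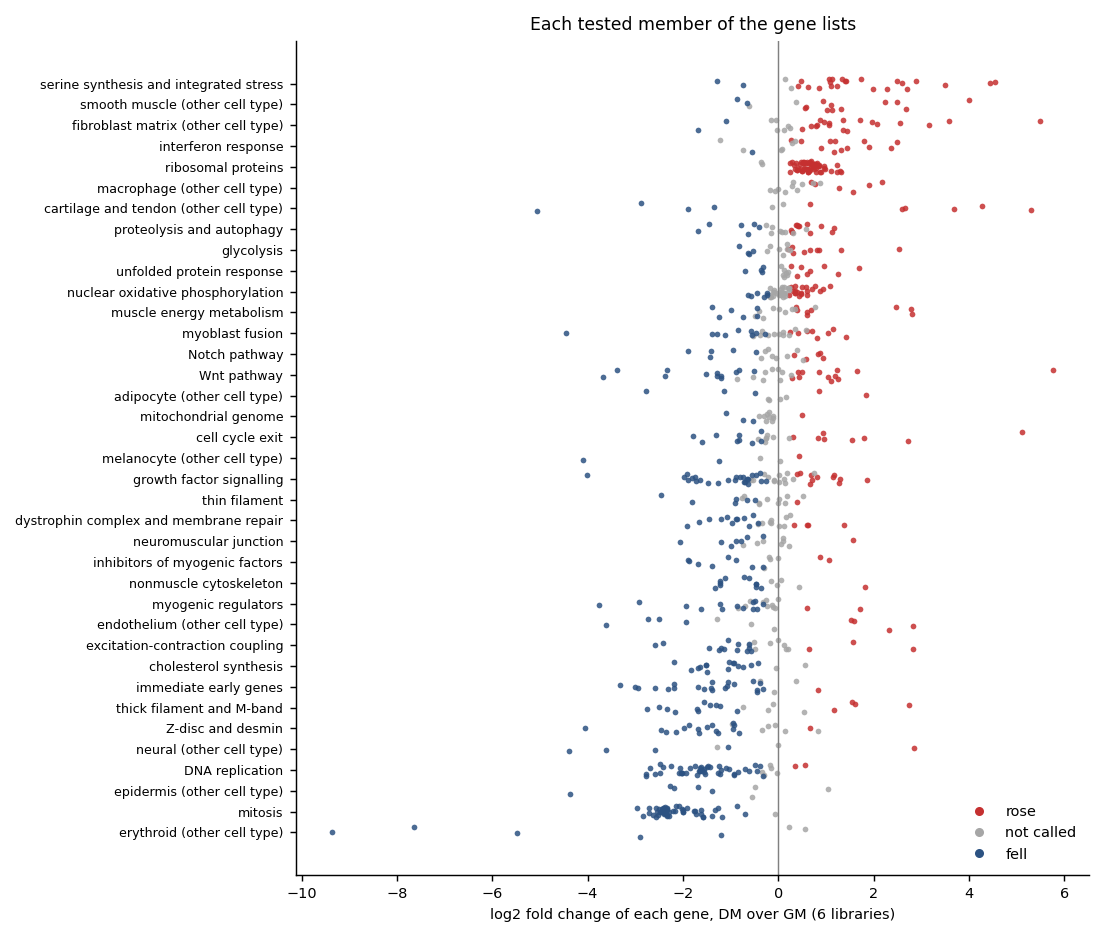
Log2 fold change of DM over GM for each tested member of the 37 gene lists, 1 point a gene, with members that rose in red, that fell in blue and that were not called in grey. Mitosis, replication and cholesterol members lie almost all to the left of 0, and ribosomal protein and serine synthesis members almost all to the right.

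The transcription factors of the muscle lineage were mostly lower after differentiation. Of 25 tested members of the list, 13 fell and 2 rose, with a median log2 fold change of -0.52 (-0.40 without GM replicate 3). MYF5, on chromosome 1 from 40002758 to 40003972 as the files list it (build not given in the sources used here), had an FPKM, a read count scaled for gene length and library size, of 360, 336 and 185 in GM and of 34.1, 46.7 and 30.1 in DM. All 3 DM libraries were far below the lowest GM library, and the log2 fold change was -2.91 (SE 0.26, adjusted p = 5.6e-05). Its neighbour MYF6, a related factor from 39998073 to 39999566 on the same chromosome, had 54.2, 44.3 and 33.4 FPKM in GM and 12.9, 11.1 and 8.81 in DM, and fell by 1.93 (SE 0.20, adjusted p = 0.00011). MYOD1 fell by a smaller amount, from 259, 214 and 288 FPKM to 158, 142 and 136 (log2 fold change -0.74, SE 0.13, adjusted p = 0.0017).

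MYOG, in contrast, was abundant in both groups and was not called. It had 287, 287 and 526 FPKM in GM and 298, 328 and 274 in DM. GM replicate 3 alone was high, and the other 5 libraries overlapped. The log2 fold change was -0.23 (SE 0.25, adjusted p = 0.44), and 0.13 (SE 0.09, adjusted p = 0.20) without that library. Myomaker (TMEM8C) showed the same layout of values, with 96.0, 87.5 and 170 FPKM in GM and 87.1, 91.3 and 82.1 in DM (log2 fold change -0.39, SE 0.25, adjusted p = 0.21, and -0.01, SE 0.08, without GM replicate 3).

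Among the MEF2 factors, which act with the MYOD1 family on muscle genes, MEF2A and MEF2D fell and MEF2C was called only without GM replicate 3. MEF2A fell by 0.86 (SE 0.22, adjusted p = 0.0096) and MEF2D by 0.50 (SE 0.18, adjusted p = 0.039). MEF2C had 65.9, 61.6 and 150 FPKM in GM against 46.8, 48.4 and 53.4 in DM, and its log2 fold change of -0.85 (SE 0.33) missed the threshold at an adjusted p of 0.057. Without GM replicate 3 its spread was smaller and it fell by 0.30 (SE 0.08, adjusted p = 0.0073). PITX3, a homeobox factor, fell by 1.61 (SE 0.09, adjusted p = 5.0e-06), from between 60.7 and 70.0 FPKM to between 20.2 and 20.7. The members that rose were NFIX, a factor of the fetal muscle programme in the mouse, by 1.71 (SE 0.15, adjusted p = 4.5e-05), and EYA4, by 0.61 (SE 0.15, adjusted p = 0.0084). PAX7, the marker of muscle stem cells, was not matched by symbol and is not analysed here.

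Repressors of these factors also fell more often than they rose, in 8 against 2 of 14 tested (median -0.44, and -0.36 without GM replicate 3). ID2, which binds the partners of MYOD1 and keeps them from DNA, had 107, 94.7 and 128 FPKM in GM and 27.6, 29.8 and 28.3 in DM, a fall of 1.88 (SE 0.13, adjusted p = 1.2e-05). ID4 fell by 0.32 (SE 0.09, adjusted p = 0.016), HEYL, a Notch target, by 1.89 (SE 0.24, adjusted p = 0.00025) and BHLHE40 by 1.39 (SE 0.09, adjusted p = 7.6e-06). MSTN, the secreted limiter of muscle growth, rose by 1.07 (SE 0.17, adjusted p = 0.00073) from 5.66, 8.27 and 5.25 FPKM to 12.7, 12.8 and 12.7.

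The matched genes of the sarcomere were mixed, and more of them fell than rose in the cells labelled as myotubes. Not matched by symbol were 13 of 32 entries of the thick filament list, 8 of 26 of the thin filament list and 5 of 28 of the Z-disc list. In the thick filament and M-band list, 11 of 19 tested members fell and 4 rose (median -1.23). Without GM replicate 3, 11 fell and 6 rose, with a median of -0.74. MYBPH, a myosin-binding protein, had 90.7, 75.2 and 207 FPKM in GM and 18.5, 18.3 and 16.8 in DM, and fell by 2.75 (SE 0.38, adjusted p = 0.00051), or by 2.15 (SE 0.10) without GM replicate 3. UNC45B, the chaperone that folds myosin, fell by 2.50 (SE 0.31, adjusted p = 0.00026), MYL4, an embryonic light chain, by 2.35 (SE 0.12, adjusted p = 2.6e-06), and the M-band protein MYOM3 by 1.71 (SE 0.31, adjusted p = 0.0019). MYH15, a myosin heavy chain, fell from 193, 169 and 365 FPKM to 91.6, 90.8 and 101 (log2 fold change -1.31, SE 0.28, adjusted p = 0.0048). Without GM replicate 3 the falls were still called and smaller, by 2.04 for UNC45B, 1.24 for MYOM3 and 0.87 for MYH15.

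The 4 that rose were a myosin-binding protein, 2 light chains and a kinase. MYBPC1, slow myosin-binding protein C, was at 0.475, 0.516 and 2.31 FPKM in GM and at 5.77, 7.16 and 8.83 in DM, a rise of 2.74 (SE 0.56, adjusted p = 0.0036) that was 3.93 (adjusted p = 5.7e-08) without GM replicate 3. The light chains MYL3 and MYL10 rose by 1.55 (SE 0.21, adjusted p = 0.00034) and 1.16 (SE 0.21, adjusted p = 0.0017), and MYLK2, the skeletal muscle myosin light chain kinase, by 1.62 (SE 0.37, adjusted p = 0.0064), or by 2.25 (SE 0.15) without GM replicate 3. MYL10 was the most abundant of them, with 206, 178 and 160.0 FPKM in DM. MYL1, the main fast alkali light chain, had 438, 396 and 1059 FPKM in GM and 358, 349 and 392 in DM and was not called (log2 fold change -0.73, SE 0.36, adjusted p = 0.11). Its log2 fold change was -0.12 (SE 0.08, adjusted p = 0.22) without GM replicate 3. The fast myosin heavy chain genes were not matched by symbol and are not analysed here.

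For the thin filament the direction of the list's median rested on GM replicate 3. With 6 libraries 6 of 17 tested members fell and 1 rose, with a median of -0.40. Without that library 7 fell and 6 rose, with a median of 0.13. TNNI1, slow troponin I, shows the layout, with 404, 352 and 797 FPKM in GM and 613, 549 and 534 in DM. DM lay above GM replicates 1 and 2 and below GM replicate 3, so that TNNI1 was not called with 6 libraries (log2 fold change 0.18, adjusted p = 0.62) and rose by 0.65 (SE 0.10, adjusted p = 0.00015) without that library. TPM2, a tropomyosin, likewise moved from -0.01 (adjusted p = 0.96) to 0.29 (SE 0.08, adjusted p = 0.0056), and TNNC1, slow troponin C, from -0.40 (adjusted p = 0.31) to 0.13 (adjusted p = 0.15).

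Several thin filament genes fell in both fits. KLHL41, a protein that stabilises thin filaments, fell by 2.46 (SE 0.20, adjusted p = 3.4e-05) from 189, 192 and 296 FPKM to 39.1, 37.0 and 42.2. KLHL40, a related protein, fell by 1.82 (SE 0.23, adjusted p = 0.00033). TNNI2, fast troponin I, fell from 582, 599 and 1124 FPKM to 405, 389.5 and 385 (log2 fold change -0.91, SE 0.26, adjusted p = 0.016), and by 0.52 (SE 0.07, adjusted p = 7.6e-05) without GM replicate 3. TPM1, the most abundant member, was at 1457 to 1682 FPKM in GM and at 1606 to 1663 in DM and was not called (log2 fold change 0.13, adjusted p = 0.25), while it rose by 0.19 (adjusted p = 0.044) without GM replicate 3. The skeletal actin gene ACTA1 was not matched by symbol and is not analysed here.

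The Z-disc and desmin list had the lowest median of the 3 sarcomere lists, with 16 of 23 tested members that fell and 1 that rose (median -1.26, and -0.91 without GM replicate 3, where 16 fell and 3 rose). Desmin (DES), the intermediate filament that links Z-discs, had 613, 541 and 1279 FPKM in GM and 149, 145 and 133 in DM. The groups did not overlap, and DES fell by 2.46 (SE 0.33, adjusted p = 0.00041), or by 1.95 (SE 0.09, adjusted p = 1.3e-08) without GM replicate 3. CSRP3, the muscle LIM protein of the Z-disc, fell by 4.06 (SE 0.36, adjusted p = 5.1e-05) from 62.4, 59.2 and 116 FPKM to 6.09, 4.17 and 3.36. ACTN2, muscle alpha-actinin, fell by 1.69 (SE 0.32, adjusted p = 0.0025), MYPN, the Z-disc scaffold myopalladin, by 2.15 (SE 0.31, adjusted p = 0.00057), and CAVIN4, a caveolar protein of muscle, by 2.36 (SE 0.29, adjusted p = 0.00026). These falls without GM replicate 3 were 3.67 for CSRP3, 1.17 for ACTN2, 1.70 for MYPN and 1.93 for CAVIN4, all called. FHL3, a LIM protein, was the member that rose, by 0.65 (SE 0.07, adjusted p = 0.00011). MYOT, myotilin, was at 4.79, 3.92 and 11.2 FPKM in GM and 11.4, 11.3 and 11.9 in DM, and rose only in the fit without GM replicate 3 (log2 fold change 0.84, adjusted p = 0.083, against 1.47, adjusted p = 2.9e-06).

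**Figure D3:**
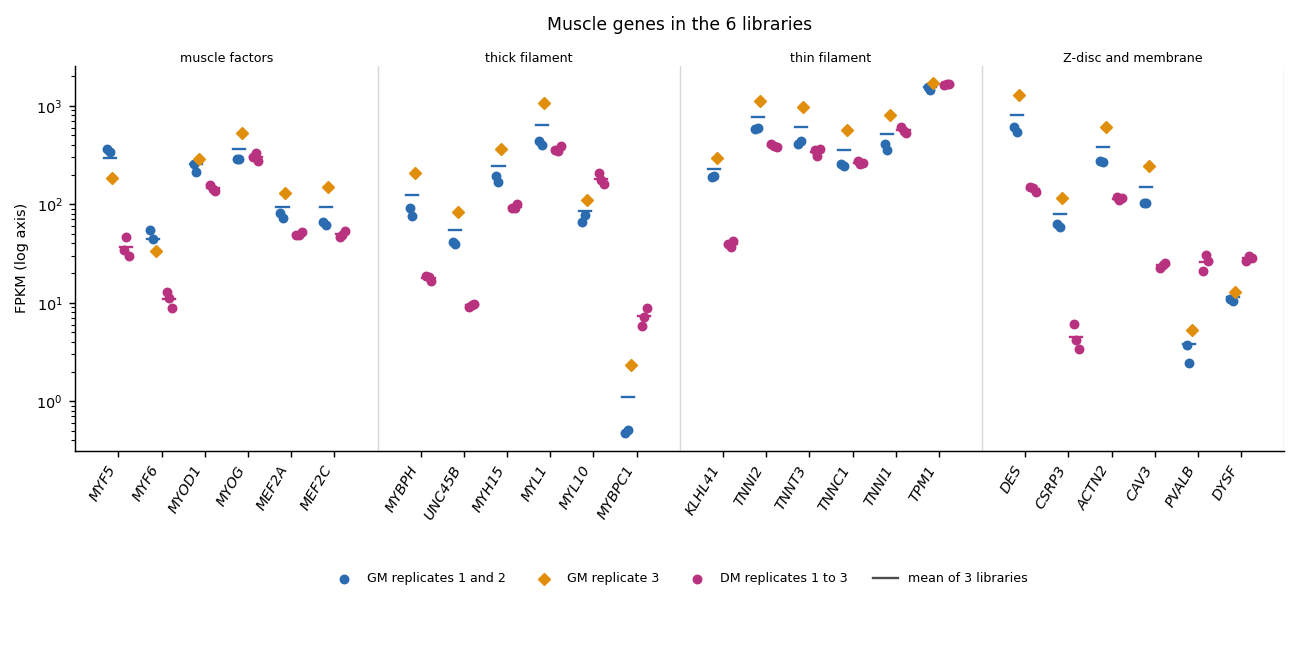
FPKM on a log axis of muscle genes in each of the 6 libraries, with GM replicate 3 as an orange diamond and bars at the mean of the 3 libraries of a group. MYF5 and MYF6 were lowest within GM in replicate 3, while DES, ACTN2, CAV3, MYBPH and MYL1 were highest there, and the DM values of DES, 133 to 149, lie below all GM values.

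Membrane systems of the muscle fibre showed the same mixture. In the excitation-contraction list 13 of 24 tested members fell and 3 rose (median -0.62, and -0.40 without GM replicate 3). CAV3, muscle caveolin, had 104, 102 and 244 FPKM in GM and 22.7, 23.9 and 25.3 in DM, a fall of 2.59 (SE 0.36, adjusted p = 0.00047), and SRL, sarcalumenin of the calcium store, fell by 2.42 (SE 0.32, adjusted p = 0.00039). CAV3 fell by 2.03 and SRL by 1.95 without GM replicate 3. PVALB, parvalbumin, the calcium buffer of fast fibres, rose by 2.82 (SE 0.28, adjusted p = 9.6e-05) from 3.70, 2.42 and 5.24 FPKM to 20.9, 30.8 and 26.4. ASPH rose by 1.56 (SE 0.18, adjusted p = 0.00019), and the calcium pump ATP2A2 fell by 0.84 (SE 0.12, adjusted p = 0.00048).

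At the neuromuscular junction 7 of 15 tested genes fell and 1 rose (median -0.44, and -0.28 without GM replicate 3, where 7 fell and 4 rose). AGRN, agrin, which clusters acetylcholine receptors, fell by 2.07 (SE 0.15, adjusted p = 1.9e-05), from 12.6, 14.7 and 9.82 FPKM to 2.34, 3.21 and 2.88. The receptor subunit CHRND fell by 0.99 (SE 0.33, adjusted p = 0.030), or by 0.48 (SE 0.11, adjusted p = 0.0023) without GM replicate 3. The subunit CHRNA1 was not called, with 92.5, 81.0 and 149.6 FPKM in GM and 108, 113 and 109 in DM, and rose by 0.41 (SE 0.08, adjusted p = 0.0012) without GM replicate 3. Of 25 tested genes of the dystrophin complex and membrane repair, 12 fell and 4 rose (median -0.42, and -0.20 without GM replicate 3). DMD, dystrophin, fell by 1.21 (SE 0.13, adjusted p = 0.00012) and its partner DTNA by 1.93 (SE 0.32, adjusted p = 0.0012), or by 1.44 without GM replicate 3. DYSF, dysferlin of membrane repair, rose by 1.37 (SE 0.11, adjusted p = 2.5e-05) from 10.95, 10.4 and 13.0 FPKM to 26.6, 29.5 and 28.7.

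Taking the 6 lists of muscle structure and membrane together, 65 of 123 tested genes fell and 14 rose with all libraries, and 67 fell and 29 rose without GM replicate 3. Of those, 64 fell and 13 rose in both fits, and 16 genes were called as risen only when that library was left out. GM replicate 3 had a higher FPKM than GM replicates 1 and 2 for 100 of the 123 genes and the highest of all 6 libraries for 90. All 3 DM libraries were below both GM replicates 1 and 2 for 75 genes and above both for 31. These layouts were not counted over all genes tested, so the counts only describe the 123 genes. The falls of desmin and most Z-disc genes were also called without GM replicate 3, whereas fewer of the rises were called with it.

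Genes of myoblast fusion were about as often higher as lower, with 8 that rose and 9 that fell of 28 tested (median -0.04, and -0.01 without GM replicate 3). The cell surface partners CDON and BOC, which act in muscle adhesion complexes, rose by 1.43 (SE 0.09, adjusted p = 8.3e-06) and 1.15 (SE 0.12, adjusted p = 7.4e-05), and ADAM12, a protease of fusing myoblasts, by 1.05 (SE 0.08, adjusted p = 1.9e-05). NCAM1 and CDH2, adhesion proteins of myoblasts, fell by 1.12 (SE 0.17, adjusted p = 0.00084) and 0.85 (SE 0.22, adjusted p = 0.010). CDH15, M-cadherin, had 147, 113 and 275 FPKM in GM and 128, 124 and 105 in DM and was not called (log2 fold change -0.53, adjusted p = 0.18, and -0.06 without GM replicate 3).

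In muscle energy metabolism 8 of 23 tested genes rose and 6 fell (median 0.13), and 11 rose and 6 fell without GM replicate 3 (median 0.43). ENO3, the muscle form of enolase, was at 3.08, 3.50 and 5.35 FPKM in GM and at 26.4, 28.1 and 25.1 in DM, a rise of 2.79 (SE 0.21, adjusted p = 2.4e-05). PYGB, the brain-type glycogen phosphorylase, rose by 2.47 (SE 0.11, adjusted p = 1.5e-06). CKB, the brain-type creatine kinase that muscle precursors use, fell by 0.73 (SE 0.11, adjusted p = 0.00055). FABP3, the muscle fatty acid carrier, rose by 0.71 (SE 0.08, adjusted p = 1.3e-05) only without GM replicate 3, which had 308 FPKM against 131 and 123 in the other GM libraries and 194 to 207 in DM.

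Genes of mitosis fell almost without exception, and most genes of replication fell. Of 50 tested mitosis genes 49 fell and 0 rose (median -2.31, and -2.54 without GM replicate 3), and of 51 replication genes 44 fell and 2 rose (median -1.53, and -1.74). KIF11, a spindle motor, had 58.0, 57.5 and 30.2 FPKM in GM and 5.15, 6.83 and 7.28 in DM and fell by 2.84 (SE 0.25, adjusted p = 4.9e-05). CDK1, the kinase that starts mitosis, fell by 2.39 (SE 0.21, adjusted p = 4.7e-05) from 149, 171 and 88.6 FPKM to 23.99, 26.2 and 23.5. TK1, thymidine kinase, fell by 2.78 (SE 0.21, adjusted p = 2.3e-05), RRM2, a ribonucleotide reductase subunit, by 2.78 (SE 0.23, adjusted p = 3.8e-05), and the replication helicase subunit MCM2 by 2.09 (SE 0.10, adjusted p = 2.2e-06). GM replicate 3 lay between the other GM libraries and DM for KIF11, CDK1, TK1 and RRM2, and for each of these genes the fall was larger without it.

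Among genes of cell cycle exit 8 of 24 tested rose and 9 fell (median -0.26, and -0.11 without GM replicate 3). The list mixes inhibitors of the cell cycle with genes that promote it, such as CDK6. Its counts and median therefore do not measure exit in 1 direction. CDKN1A, the p21 inhibitor that holds differentiating muscle cells out of the cycle, had 26.2, 32.9 and 41.3 FPKM in GM and 121, 118 and 93.2 in DM, a rise of 1.79 (SE 0.19, adjusted p = 0.00013). CDKN2A rose by 5.10 (SE 0.26, adjusted p = 2.8e-06) from 0.348, 0.482 and 0.215 FPKM to 13.4, 10.7 and 9.88. Which product of that locus the reads stand for was not examined. MXD4, an antagonist of MYC, rose by 2.72 (SE 0.12, adjusted p = 1.4e-06) and CCNG1, a p53 target, by 1.55 (SE 0.13, adjusted p = 3.1e-05). CCND1 fell by 0.83 (SE 0.11, adjusted p = 0.00027) while CCND2, another D cyclin, rose by 0.94 (SE 0.07, adjusted p = 1.7e-05). RBL1 and CDK6 were among those that fell, by 1.61 (SE 0.17, adjusted p = 0.00012) and 1.31 (SE 0.10, adjusted p = 2.4e-05).

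Growth factor genes fell in 25 and rose in 11 of 49 tested members (median -0.39, and -0.46 without GM replicate 3). The ligands PDGFA (listed as PDGF-A) and PDGFB fell by 1.98 (SE 0.16, adjusted p = 3.1e-05) and 1.64 (SE 0.21, adjusted p = 0.00023). MET, the receptor of hepatocyte growth factor, fell by 1.89 (SE 0.15, adjusted p = 3.3e-05) from 23.2, 23.6 and 15.0 FPKM to 5.09, 5.59 and 5.21, while its ligand HGF rose by 1.87 (SE 0.17, adjusted p = 4.2e-05) from 3.22, 4.12 and 2.75 FPKM to 10.9, 10.03 and 14.02. IGF2, a growth factor that muscle cells release on differentiation, rose by 1.28 (SE 0.16, adjusted p = 0.00026), and IGFBP2, a binding protein of that family, fell by 1.76 (SE 0.19, adjusted p = 0.00013).

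In the Notch pathway, which keeps muscle precursors undifferentiated, 5 genes rose and 5 fell of 18 tested (median -0.09, and 0.06 without GM replicate 3). The ligands JAG2 and JAG1 fell by 1.43 (SE 0.12, adjusted p = 2.6e-05) and 0.94 (SE 0.08, adjusted p = 3.3e-05), and RFNG, a modifier of the receptor, rose by 0.94 (SE 0.08, adjusted p = 2.6e-05). Wnt pathway genes rose in 12 and fell in 12 of 33 tested (median -0.14, and -0.08 without GM replicate 3). SFRP2, a secreted modulator of Wnt signals, had 2.69, 3.32 and 1.59 FPKM in GM and 118, 108 and 166 in DM, a rise of 5.77 (SE 0.27, adjusted p = 3.0e-06). The receptor FZD1 rose by 1.25 (SE 0.19, adjusted p = 0.00079) and the ligand WNT5B fell by 1.52 (SE 0.16, adjusted p = 9.6e-05).

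Immediate early genes, known to be induced by serum among other signals, were mostly lower, and the part of serum was not tested. Of 25 tested immediate early genes 21 fell and 1 rose (median -1.12, and -1.03 without GM replicate 3). EGR1 had 216, 198 and 266 FPKM in GM and 44.1, 47.6 and 52.3 in DM and fell by 2.18 (SE 0.14, adjusted p = 7.7e-06), FOS fell by 2.31 (SE 0.19, adjusted p = 4.0e-05), and the nuclear receptor NR4A3 by 3.01 (SE 0.24, adjusted p = 2.7e-05). CTGF, a matrix-associated growth factor, was the member that rose, by 0.84 (SE 0.11, adjusted p = 0.00025), and MYC was not called (adjusted p = 0.56).

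Cholesterol synthesis fell as a group, in 15 of 17 tested genes with 0 that rose (median -1.03). Without GM replicate 3, 14 fell and 1 rose (median -0.996). INSIG1, which holds the sterol sensor in the endoplasmic reticulum, had 85.8, 84.1 and 95.2 FPKM in GM and 18.8, 17.0 and 19.5 in DM and fell by 2.20 (SE 0.10, adjusted p = 1.6e-06). The enzymes LSS and SQLE fell by 1.68 (SE 0.07, adjusted p = 1.3e-06) and 1.63 (SE 0.10, adjusted p = 7.3e-06).

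The genes of serine synthesis and the integrated stress response, many of them targets of the factor ATF4, rose in 22 of 26 tested members and fell in 2 (median 1.28, and 1.20 without GM replicate 3). PHGDH, the first enzyme of serine synthesis, on chromosome 8 from 4264703 to 4268005, had 57.6, 58.7 and 96.0 FPKM in GM and 1469, 1599 and 1359 in DM. The rise was 4.44 (SE 0.24, adjusted p = 5.6e-06), a factor of 21.7. The enzymes that follow it, PSAT1 and PSPH, rose by 2.48 (SE 0.11, adjusted p = 1.3e-06) and 2.89 (SE 0.09, adjusted p = 4.3e-07). CHAC1, which breaks down glutathione, rose by 4.54 (SE 0.18, adjusted p = 1.5e-06) from 8.39, 9.39 and 7.15 FPKM to 222, 180.2 and 149, and SLC7A11, the cystine transporter, by 3.50 (SE 0.24, adjusted p = 1.0e-05).

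Transporters and regulators of that list rose as well. ASNS, asparagine synthetase, rose by 1.98 (SE 0.10, adjusted p = 2.8e-06), the amino acid transporter SLC7A5 by 2.70 (SE 0.09, adjusted p = 4.3e-07), ATF3 by 1.09 (SE 0.14, adjusted p = 0.00025) and ATF4 by 0.86 (SE 0.10, adjusted p = 0.00014). DDIT4, an inhibitor of the growth kinase mTORC1, had 148, 219.7 and 155 FPKM in GM and 1198, 957 and 830.2 in DM, a rise of 2.59 (SE 0.19, adjusted p = 2.2e-05). ALDH1L2, a mitochondrial folate enzyme, had 34.6 FPKM in GM replicate 3 against 13.4 and 12.7 in the other GM libraries and 64.9 to 65.4 in DM, so that its rise of 1.73 (SE 0.38) became 2.38 (SE 0.08) without it. The unfolded protein response, a stress pathway of the endoplasmic reticulum, had 8 that rose and 4 that fell of 19 tested (median 0.17, and 0.18 without GM replicate 3). Its chaperone HSPA5 was not called (549, 502 and 510.3 FPKM in GM, 614, 565 and 546 in DM, adjusted p = 0.070), while SEL1L and HERPUD1, of protein degradation, rose by 1.69 (SE 0.09, adjusted p = 3.5e-06) and 1.25 (SE 0.08, adjusted p = 9.8e-06).

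**Figure D4:**
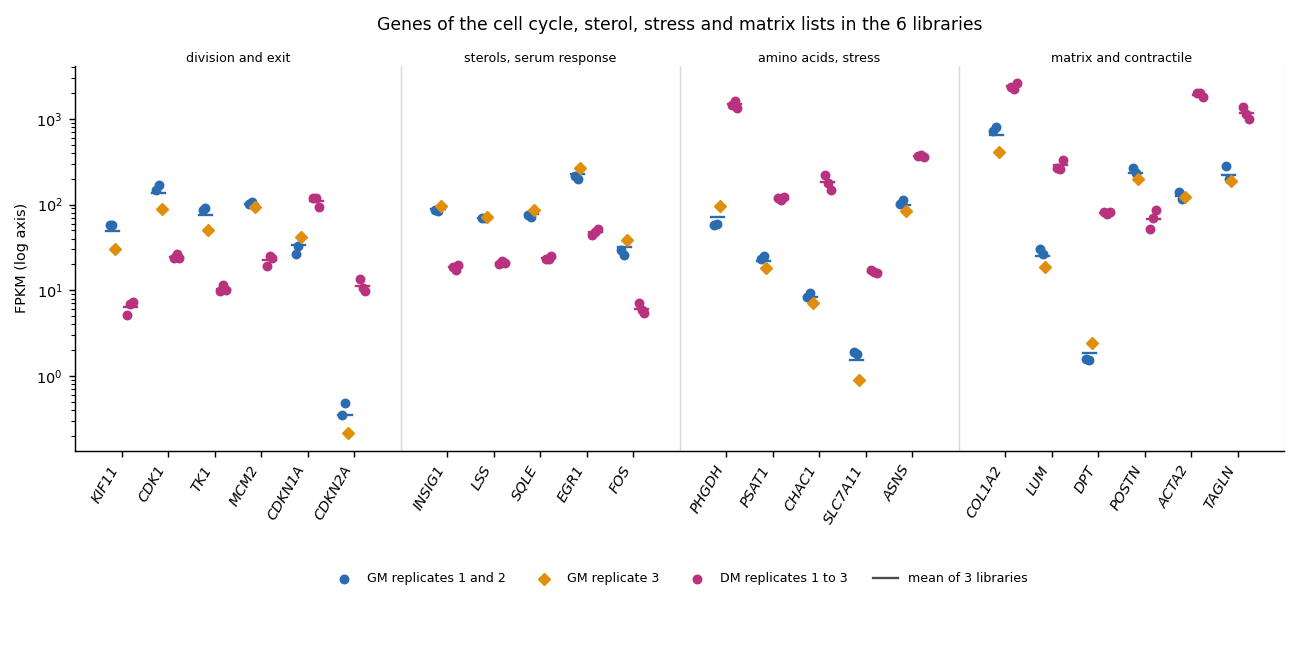
FPKM on a log axis of genes of cell division and exit, sterol synthesis and serum response, amino acid synthesis and stress, and matrix and contractile proteins, in each of the 6 libraries, with GM replicate 3 as an orange diamond and bars at group means. Every DM value of PHGDH, CHAC1, DPT, ACTA2 and CDKN2A lies far above every GM value, and KIF11, CDK1, TK1 and COL1A2 have a GM replicate 3 value apart from the other GM libraries.

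Ribosomal protein genes rose together, 61 of 63 tested with 0 that fell (median 0.66), and 58 rose and 1 fell without GM replicate 3. Their log2 fold changes ran from -0.37 to 1.31. RPS15, near the top of that range, went from 1114, 1403 and 1169 FPKM to 2378, 3064 and 2854 (log2 fold change 1.24, SE 0.11, adjusted p = 4.8e-05). Short genes in general leaned the same way: over tested genes of at least 5 FPKM in either group, split by listed length into 8 bins, log2 fold changes had a median of 0.12 among the shortest and -0.12 among the longest. With the length trend removed, 55 ribosomal protein genes rose and 1 fell.

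Lists of energy genes outside the muscle list had small median changes, while some single members moved by more. Of 53 nuclear oxidative phosphorylation genes 21 rose and 6 fell (median 0.15, and 0.18 without GM replicate 3), among them NDUFB7, a complex I subunit, which rose by 1.08 (SE 0.11, adjusted p = 7.4e-05). Of 13 genes of the mitochondrial genome 3 fell and 1 rose (median -0.25, and -0.20). MT-ND2 fell by 1.10 (SE 0.15, adjusted p = 0.00044), and MT-ND3 was the member that rose, by 0.51 (SE 0.10, adjusted p = 0.0032). Reads from that genome made up 3.81 to 4.92% of a GM library and 3.08 to 4.25% of a DM library. Glycolysis genes rose in 9 and fell in 4 of 20 tested (median 0.20, and 0.19 without GM replicate 3). Their log2 fold changes ran from -0.82 to 2.54. The glucose transporter SLC2A1 rose by 0.85 (SE 0.10, adjusted p = 0.00014) and hexokinase HK2 fell by 0.82 (SE 0.11, adjusted p = 0.00042).

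Of 26 proteolysis and autophagy genes 12 rose and 6 fell (median 0.28, and 0.24 without GM replicate 3). The muscle ubiquitin ligases TRIM55 and TRIM54 fell by 1.69 (SE 0.34, adjusted p = 0.0034, or by 1.13 without GM replicate 3) and 1.45 (SE 0.20, adjusted p = 0.00043), and CTSB, a lysosomal protease, and BNIP3, a receptor for mitochondrial autophagy, rose by 1.13 (SE 0.12, adjusted p = 0.00011) and 1.17 (SE 0.10, adjusted p = 2.8e-05). Interferon and antigen presentation genes rose in 12 and fell in 1 of 19 tested (median 0.90, and 0.82 without GM replicate 3). B2M, the light chain of class I molecules, rose by 1.90 (SE 0.13, adjusted p = 9.8e-06) from 42.0, 59.6 and 41.5 FPKM to 165, 169 and 173. The class I heavy chain genes BF1 and BF2 (listed as BFIV21) rose by 2.50 (SE 0.12, adjusted p = 2.1e-06) and 2.37 (SE 0.12, adjusted p = 2.6e-06), and as near-identical copies they may share reads, so that the split between them is uncertain.

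Genes of the nonmuscle cytoskeleton fell in 11 and rose in 1 of 16 tested (median -0.47, and -0.54 without GM replicate 3). ACTB, cytoplasmic actin and among the genes with the most reads, fell by 0.73 (SE 0.09, adjusted p = 0.00028) from 6519.8, 6074 and 5454 FPKM to 3624, 3407 and 3353. MYH10, a nonmuscle myosin, was the member that rose, by 1.82 (SE 0.11, adjusted p = 6.4e-06).

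Markers of connective tissue and of smooth muscle rose with differentiation. Of 26 tested fibroblast matrix genes 18 rose and 2 fell (median 0.91, and 0.84 without GM replicate 3), and the summed level of the list was 4226 to 6023 FPKM in GM and 9401 to 10488 in DM. COL1A2, a chain of type I collagen, had 718, 815 and 415 FPKM in GM and 2370.3, 2261 and 2594 in DM, a rise of 1.97 (SE 0.21, adjusted p = 0.00014). DPT, dermatopontin, rose by 5.50 (SE 0.18, adjusted p = 4.5e-07) from 1.58, 1.52 and 2.42 FPKM to 82.8, 77.5 and 81.4, and LUM, lumican, by 3.58 (SE 0.18, adjusted p = 4.3e-06). SPARC, a matrix glycoprotein, rose by 1.36 (SE 0.10, adjusted p = 1.2e-05). POSTN, periostin, and TNC, tenascin C, were the members that fell, by 1.69 (SE 0.18, adjusted p = 0.00012) and 1.09 (SE 0.14, adjusted p = 0.00028), and fibronectin (FN1) was not called.

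Smooth muscle markers rose in 11 and fell in 2 of 15 tested (median 1.03, and 0.91 without GM replicate 3), with a summed level of 1397 to 1676 FPKM in GM and 4341 to 5102 in DM. ACTA2, the actin of smooth muscle and myofibroblasts, which differentiating skeletal myoblasts also use for a time, had 139, 117 and 123 FPKM in GM and 1991, 1987 and 1800.2 in DM. It rose by 4.00 (SE 0.11, adjusted p = 3.6e-07), and GM replicate 3 lay within the other GM values. TAGLN, transgelin, rose by 2.48 (SE 0.19, adjusted p = 2.5e-05), MYLK, the smooth muscle myosin light chain kinase, by 2.68 (SE 0.10, adjusted p = 8.3e-07) and LMOD1 by 2.24 (SE 0.11, adjusted p = 2.1e-06). CNN1, calponin, fell by 0.86 (SE 0.25, adjusted p = 0.019, or by 0.51 without GM replicate 3), and MYOCD, the master factor of smooth muscle, was not called, at 3.49 to 5.07 FPKM in GM and 4.62 to 5.56 in DM. The part of a change in the mix of cells in the falls of the muscle lists was not tested.

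Macrophage markers were present in both groups, and more of them were called as risen without GM replicate 3. Of 16 tested, 6 rose and 0 fell with 6 libraries (median 0.59), and 14 rose and 0 fell without it (median 1.04). Their summed level was 149.99 and 165 FPKM in GM replicates 1 and 2, 339 in GM replicate 3 and 300.2 to 348 in DM. CSF1R, the receptor that macrophages depend on, had 7.93, 8.67 and 14.4 FPKM in GM and 15.6, 15.5 and 16.7 in DM, a rise of 0.68 (SE 0.22, adjusted p = 0.030). The complement gene C1QA, with 10.1, 11.2 and 28.8 FPKM in GM and 19.3, 22.9 and 21.5 in DM, was not called with all libraries (adjusted p = 0.41) and rose by 1.06 (SE 0.11, adjusted p = 1.1e-05) without GM replicate 3.

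Red cell markers fell in 5 of 7 tested, with 0 that rose (median -2.90, and -2.93 without GM replicate 3, where 4 fell and 1 rose). Their summed level was 27.1 to 83.4 FPKM in GM and 6.16 to 6.56 in DM. HBAA, adult alpha globin, had 227, 131 and 696 reads in GM and 1, 0 and 0 in DM. The ratio of summed CPM, GM over DM, was 955 (exact 95% interval 171 to 37757, for counting error only), and 512 (91.2 to 20261) without GM replicate 3. HBAD, the neighbouring alpha globin gene, had 41, 53 and 225 reads in GM and 0, 1 and 0 in DM. As a close relative of HBAA it may share reads with it. The same ratio for HBAD was 289 (51.5 to 11452), and 134 (23.5 to 5361) without GM replicate 3. The erythroid factor GATA1 was not called, at 3.03 to 3.68 FPKM in GM and 3.25 to 4.18 in DM.

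Epidermal markers fell in 5 of 8 tested with 0 that rose (median -1.53, and -1.07 without GM replicate 3, where 6 fell), with a summed level of 43.9 to 91.4 FPKM in GM and 19.8 to 21.9 in DM. CDH1, epithelial cadherin, had 30.1, 20.7 and 52.0 FPKM in GM and 10.2, 11.1 and 9.55 in DM, a fall of 1.68 (SE 0.32, adjusted p = 0.0024), and TP63 fell by 2.27 (SE 0.31, adjusted p = 0.00047). The falls were 1.24 and 1.85 without GM replicate 3. Neural markers fell in 4 and rose in 1 of 7 tested (median -1.29, and -1.29 without GM replicate 3), with a summed level of 13.1 to 15.1 FPKM in GM and 8.11 to 9.90 in DM. NGFR, a receptor that Schwann cells carry, was among those that fell, by 3.62 (SE 0.27, adjusted p = 1.7e-05). NEFL, a neurofilament subunit, was the member that rose, by 2.84 (SE 0.23, adjusted p = 2.4e-05), from 0.911, 1.26 and 0.619 FPKM to 5.99, 5.87 and 7.05, and made up most of the summed level in DM. Melanocyte markers fell in 2 and rose in 1 of 5 tested (median -0.38, and -0.10), with a summed level of 16.2 to 37.8 FPKM in GM and 18.02 to 20.2 in DM, and the pigment enzyme TYR, too low to be tested, was at most 0.155 FPKM in any library.

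Endothelial markers split, with 4 that rose and 4 that fell of 11 tested (median -0.57, and -0.51 without GM replicate 3, where 5 fell). Their summed level went the other way from the median, from 20.1 to 24.8 FPKM in GM to 53.1 to 59.2 in DM. The defining receptor KDR fell by 3.61 (SE 0.58, adjusted p = 0.00088) and was at most 0.358 FPKM in any library. LYVE1, a receptor of lymphatic vessels and some macrophages, rose by 2.82 (SE 0.24, adjusted p = 3.3e-05), and CLDN5, a tight junction protein, rose by 2.31 (SE 0.13, adjusted p = 4.4e-06) to 21.1 to 26.7 FPKM. Cartilage and tendon genes rose in 6 and fell in 4 of 12 tested (median 0.38, and 0.15), with a summed level of 25.7 to 33.3 FPKM in GM and 60.1 to 63.6 in DM. The tendon factors SCX and MKX rose by 5.29 (SE 0.25, adjusted p = 2.0e-06) and 2.67 (SE 0.24, adjusted p = 5.4e-05), while TNMD, a marker of mature tendon, was not called and THBS4 fell by 5.06 (SE 0.16, adjusted p = 4.3e-07). Of 9 adipocyte genes 2 rose and 3 fell (median -0.19, and -0.26), at a summed level of 384 to 459.6 FPKM in GM and 361 to 436 in DM, with PPARG, the fat cell factor, up by 1.85 (SE 0.11, adjusted p = 5.3e-06) and ADIPOQ down by a log2 fold change of -2.78 (SE 0.28, adjusted p = 7.2e-05).

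**Figure D5:**
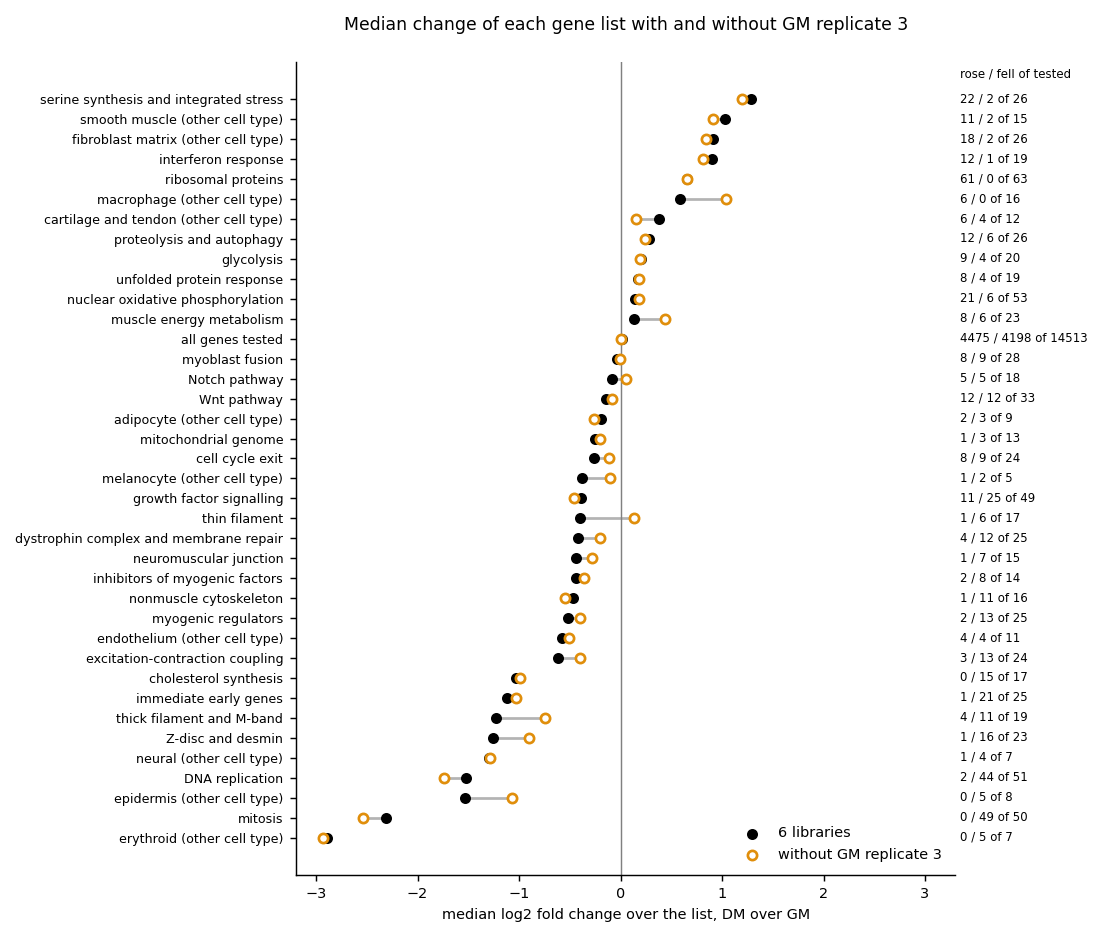
Median log2 fold change of DM over GM for each gene list with all 6 libraries (black) and without GM replicate 3 (orange rings), with the numbers that rose and fell of those tested at the right. The largest distance between the medians is seen for the thin filament list, from -0.40 to 0.13 across 0, while the mitosis list moves from -2.31 to -2.54.

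The 12 largest rises and 12 largest falls were taken from called genes with a symbol, at least 10 FPKM in the higher group and no overlap between the groups. OSTN, osteocrin or musclin, a peptide hormone of muscle and bone, rose most, with 0.524, 0.398 and 0.334 FPKM in GM and 37.0, 47.9 and 37.5 in DM. Its log2 fold change was 6.65 (SE 0.22, adjusted p = 5.1e-07), a factor of 100.3. SPON2, a matrix protein, rose by 5.99 (SE 0.19, adjusted p = 5.2e-07), followed by SFRP2 and DPT, ABHD8 (5.35), SCX, LHX9, a LIM homeobox factor (5.14), and CDKN2A. SMOC2, a matrix calcium-binding protein, rose by 5.01 (SE 0.15, adjusted p = 4.3e-07), Fgf16, a fibroblast growth factor, by 4.80, RAPGEF3, an exchange factor that cyclic AMP activates, by 4.77, and STEAP1 by 4.76.

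After HBAA, the largest fall was that of CPM, a carboxypeptidase of the cell surface, by 5.29 (SE 0.16, adjusted p = 4.3e-07) from 90.6, 107 and 73.1 FPKM to 1.91, 2.54 and 2.11. SPP1, osteopontin, was the most abundant of them, with 1111, 1302 and 1003 FPKM in GM and 45.6, 44.4 and 42.3 in DM, a fall of 4.62 (SE 0.11, adjusted p = 2.3e-07). TPPP3, a tubulin-binding protein, fell by 4.55, PCSK1, a prohormone protease, by 4.35, MMP13, a collagenase, by 4.34, and SLC16A6, a transporter, by 3.85. PERP2, ADAMDEC1 and CHST9 fell by 3.85, 3.81 and 3.71, and CSRP3 and THBS4 are described above.

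Among called genes of at least 10 FPKM that carried a symbol, HBAA, MPEG1, ALDH1L2, GDF6, ABLIM3 and HSPB2 moved most without GM replicate 3. MPEG1, a pore-forming protein of macrophages, was at 4.66 and 4.75 FPKM in GM replicates 1 and 2, 13.0 in GM replicate 3 and 27.8 to 29.8 in DM, and its rise went from 1.98 to 2.67. ABLIM3, an actin-binding LIM protein, had 37.8 FPKM in GM replicate 3 against 17.1 and 12.5, and its log2 fold change went from -2.76 to -2.14. Those of GDF6, a bone morphogenetic protein family ligand, and HSPB2, a small heat shock protein of muscle, went from -1.59 to -0.95 and from -1.80 to -1.19. Calls were lost without that library for 271 genes that had risen and 102 that had fallen. Among them were ATP1B1, a sodium pump subunit (log2 fold change -1.06, adjusted p = 0.015, against -0.73, adjusted p = 0.084), and ITGA8, an integrin (0.55, adjusted p = 0.038, against 0.36, adjusted p = 0.089). A further 363 genes rose and 428 fell only in the fit without it.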

How the data were processed

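RNA sequencing libraries, 3 in growth medium and 3 after 4 days in differentiation medium, were analysed from 1 table per sample. Per the labels' protocols total RNA was taken with Trizol and sequenced on Illumina instruments. HISAT and HTSeq are named in the submitters' processing notes with no version, and the sources used here state no genome build, annotation or strand setting, so overlapping and antisense genes cannot be told apart. Per the file headers the deposited columns are read counts per gene and FPKM values made by the authors, with no pooling of replicates. The reported tests used only the counts. FPKM values are shown as levels, and limma tested them as an alternative.

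Genes with an ENSGALG identifier were kept, 24881 in all. Library totals ran from 21528951 to 27110310 reads, so that 3 reads in a library stood for 0.111 to 0.139 CPM. Depth covers counting error only. Counts were filtered with filterByExpr, scaled by TMM and tested with edgeR 4.0.16 (robust quasi-likelihood, Benjamini-Hochberg adjustment, threshold 0.05) in R 4.3.3. The fit was also run on simulated counts drawn without an outlying library, so that run does not cover the shift of GM replicate 3. The SE is the absolute log2 fold change over the square root of F. The same test was run without GM replicate 3. Alternatives used DESeq2 1.42.0, limma 3.58.1 on log2(FPKM + 1) and log2(FPKM + 0.1), other filters, gene length, all 9 samples and each library left out.

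The members and gene lists were chosen with earlier results of these data known. Genes named by rule were the 12 largest rises and 12 largest falls with at least 10 FPKM in the higher group, up to 4 called members a list, a fixed set of muscle regulators, genes moved most by GM replicate 3 and the genes with the most reads. Other genes were chosen after their values were seen. Chicken RefSeq gene names served to match symbols. Promoters were not analysed here. Some single genes are not reported here.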

Additional observations from a re-analysis of the deposited data

Results flagged for a closer look

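Changes also appeared in features outside the main measurement, those listed without an Ensembl chicken identifier. Of 1710 such features, 1446 passed the low-count filter when they were added to the fit. In DM 404 of them rose (27.9%) and 382 fell (26.4%). In that same fit 4369 of 14513 Ensembl genes rose and 4260 fell. In the reported fit, made without these features, 4475 Ensembl genes rose (30.8%) and 4198 fell (28.9%). It thus called slightly more rises and slightly fewer falls than the fit with them. Changes of at least 4-fold made up a larger part of the added features than of the Ensembl genes, with 105 that rose and 142 that fell of the 1446. Among the 14513 Ensembl genes of the reported fit, 577 rose and 532 fell by that much. The differences between these shares were not tested.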

How the results depend on the processing

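The counts of genes that rose and fell were within 1.5 times the reported ones under every alternative run except a minimum of 2-fold change, where 1867 rose and 1579 fell. They were 4276 and 4258 with DESeq2, 3997 and 4613 with limma on log2(FPKM + 1), and 3395 and 3135 of 10153 genes with at least 5 FPKM in 3 or more libraries. With each library left out in turn 3843 to 4637 genes rose and 3430 to 4581 fell. No gene was called in opposite directions by the reported test and an alternative. With the replicate block 4273 rose and 3956 fell. Deviations from the group mean correlated at 0.044, 0.029 and -0.043 for same-numbered libraries. For other-numbered libraries the values ran from -0.116 to 0.097. With 3 libraries a group, these values cannot decide whether libraries of the same number were paired. For the fit without GM replicate 3, alternatives chosen after seeing the data gave 4284 to 4755 genes that rose and 4253 to 4674 that fell.

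Of 629 list medians under the alternatives, 597 stayed close to the reported one and 11 changed sign. With a minimum of 5 FPKM the medians were 0.026 for fusion, 0.42 for Wnt, 2.31 for endothelial markers (3 genes) and 2.84 for neural markers (1 gene). With the length trend removed they were -0.0097 for muscle energy and 0.080 for Notch. With single libraries left out the median ran from -0.64 to 0.13 for the thin filament, from -0.0744 to 0.0035 for fusion, from -0.12 to 0.43 for muscle energy and from -0.13 to 0.055 for Notch. Among named genes 14 of 3983 values changed sign, all of genes not called with 6 libraries. TPM2 was 0.043 with the replicate block and 0.078 with the length trend removed, and FABP3 was -0.0097 with that trend removed. With single libraries left out the log2 fold change ran from -0.11 to 0.41 for CHRNA1, from -0.12 to 0.71 for FABP3, from -0.061 to 0.29 for FN1, from -0.31 to 0.066 for MT-CO1, from -0.41 to 0.13 for MYOG, from -0.64 to 0.13 for TNNC1, from -0.062 to 0.65 for TNNI1 and from -0.18 to 0.29 for TPM2. The causes were not tested. Low counts limit the globin ratios in DM.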

Other observations

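Among the Ensembl genes tested, 4863 carried no symbol in the files. Of these 1432 rose and 1138 fell in DM, beside 4475 (30.8%) and 4198 (28.9%) of all 14513 genes tested. The falls were thus a smaller share of the genes without a symbol than of all genes, and this difference was not tested. Among those with at least 10 FPKM in the higher group and no overlap between the groups, ENSGALG00000033591 and ENSGALG00000030259 had the largest rises. Their log2 fold changes were 8.37 (9.11 without GM replicate 3) and 5.19. The largest falls under the same limits were those of ENSGALG00000015143, at -5.90, and ENSGALG00000032403, at -4.62. No name or role is given to them here.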
